A study of Mus musculus with 6 samples.

Results

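Cytochrome P450 genes of families 1 to 4 were examined in mouse liver. They were chosen by symbol, as the protein-coding genes named Cyp, then a digit for family 1, 2, 3 or 4, a subfamily letter and a number, with or without a final letter. This gave 80 genes in 21 subfamilies, of 43346 genes counted, and another 16 symbols of the same families, mostly pseudogenes, were outside the rule. RNA came from livers of mice on an FFC diet, here a model of metabolic dysfunction-associated steatohepatitis (MASH), and each sample is named for a short hairpin RNA (shRNA). The design text names a construct in AAV8, an adeno-associated virus serotype, for silencing S100a11, and the labels do not say how the scrambled shRNA was delivered. The libraries labelled S100a11 shRNA (numbers 2, 3 and 2600) are called knockdown in the labels, and the scrambled shRNA libraries (numbers 28, 30 and 31) are called control. No chow-fed or untreated livers were analysed here, so both groups share the diet, and no promoter is named for the shRNA. The labels state neither sex, age nor strain. They also do not say whether each sample is its own animal, and the p-values below weigh a group difference only against the spread among these samples.

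P450 enzymes are haem proteins of the endoplasmic reticulum that insert oxygen into fat-soluble molecules, using electrons passed on by the reductase Por. Families 1 to 3 clear drugs, pollutants, steroids and plant compounds, whereas family 4 mainly hydroxylates fatty acids and eicosanoids. Hepatocytes around the central vein hold most of these enzymes, and nuclear receptors (Ahr, CAR, PXR, PPARA and HNF4A) and growth hormone set their transcription. In mouse liver several of them differ strongly between males and females. Hepatic P450 transcripts are known to fall in inflamed liver.

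Many of these genes lie in tandem arrays of recent duplicates, and this bears on every value given for them. Of the 80 genes, 23 fell into 10 groups of close copies, in which a gene shared at least 20% of its 50-base exon words with another, counted on GENCODE M21 transcripts. Cyp3a41a and Cyp3a41b were the closest pair. Their coding sequences differed at 2 of 1512 bases, with an identical run of 1176 bases. Cyp2a4 and Cyp2a5 differed at 23 of 1482 coding bases (98.5% identity), and Cyp2c37 and Cyp2c50 at 57 of 1470 (96.1%). The sources used here do not say how the counting treated a read that fits more than 1 copy. The stretches below, read from the GENCODE M21 transcripts (GRCm38, the assembly also called mm10) on chromosome 7 for the Cyp2a pair (coding bases 580 to 669) and chromosome 19 for the Cyp2c pair (coding bases 608 to 697), show how far apart the copies are where they differ most densely. Capitals mark the bases that differ within a pair.
Cyp2a4: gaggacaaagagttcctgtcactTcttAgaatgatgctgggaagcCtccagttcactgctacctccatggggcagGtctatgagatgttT
Cyp2a5: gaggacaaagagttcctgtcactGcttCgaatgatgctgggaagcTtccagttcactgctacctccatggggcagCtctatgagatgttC
Cyp2c37: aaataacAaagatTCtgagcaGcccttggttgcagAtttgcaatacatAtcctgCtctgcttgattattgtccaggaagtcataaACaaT
Cyp2c50: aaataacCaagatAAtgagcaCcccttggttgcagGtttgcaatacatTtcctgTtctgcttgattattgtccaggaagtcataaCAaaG
Within these 90 bases the Cyp2a pair differed at 5 positions and the Cyp2c pair at 10.

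Before the P450 values, 3 facts about the libraries matter. S100a11, the targeted gene, stood at 16.0, 3.55 and 3.41 CPM (the count divided by the TMM-scaled library size, as edgeR reports it) in the libraries labelled S100a11 shRNA 2, 3 and 2600, against 15.9, 22.9 and 30.0 CPM in scrambled libraries 28, 30 and 31. The library labelled S100a11 shRNA 2 therefore overlapped the scrambled group, and the difference did not pass the threshold (log2 change -1.57 ± 0.56, SE, edgeR adjusted p = 0.095). Depth was 53517387 to 78091845 counts. The non-coding gene Gm26917 held 42780 to 132000 CPM in the libraries labelled S100a11 shRNA, against 28540 to 37090 CPM in the scrambled ones, and TMM factors were 0.82 to 0.93 against 1.10 to 1.19. Markers of other cells also differed, where 5.82% of all 19352 tested genes were higher and 8.28% lower (edgeR adjusted p under 0.05). All 6 cholangiocyte markers were lower (summed level 121.3 to 139.6 CPM against 463.0 to 569.3 CPM), as were 4 of 6 stellate cell markers (353.8 to 546.4 against 659.4 to 896.0 CPM), 3 of 6 macrophage markers (168.6 to 310.6 against 325.3 to 466.3 CPM) and 2 of 5 tested neutrophil markers (11.2 to 21.3 against 20.9 to 23.9 CPM, where Mpo and Ngp were at 0 in library 3 and Ly6g at 0 in scrambled library 28). Of 6 endothelial markers 1 was higher and 1 lower. Of 7 hepatocyte markers 1 (Serpina1c) was higher, and their summed level was 48260 to 67770 CPM against 40190 to 50720 CPM. In bulk liver, fewer cells of a type and less RNA per cell cannot be told apart, and the part of these differences in the P450 results was not tested.

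P450 transcripts were more abundant in the libraries labelled S100a11 shRNA, and most of the abundant members took part. Values are given below in the order 2, 3 and 2600 for the libraries labelled S100a11 shRNA and 28, 30 and 31 for the scrambled libraries. Summed over the 80 genes, the level was 18820, 24290 and 24010 CPM in the libraries labelled S100a11 shRNA, against 12310, 8511 and 9418 CPM in the scrambled libraries. The groups averaged 22370 ± 3078 CPM and 10080 ± 1986 CPM (SD over 3 libraries), a ratio of 2.22, and did not overlap. As a share of raw counts the same genes held 1.75%, 2.17% and 1.97%, against 1.36%, 1.01% and 1.04%.

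Of the 80 genes, 66 had enough counts to be tested across the whole table. At an edgeR adjusted p under 0.05, 25 were higher and 3 lower, whereas 5.82% of all 19352 tested genes were higher and 8.28% lower. The groups did not overlap for 40 of the 66, where 34.7% of all tested genes showed no overlap. Regardless of the threshold, 54 had a positive and 12 a negative log2 change. The median log2 change was 0.70, against 0.04 over all tested genes. Abundance is part of this contrast: 32 of the 66 lay in the most abundant sixth of tested genes, in which 16.4% of all genes were higher and 2.32% lower. Of those 32, 18 were higher and the others were not called, with a median log2 change of 0.91 against 0.24 for all genes of that sixth. The 3 lower members, Cyp1b1, Cyp4f16 and Cyp4f18, lay in the third sixth.

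**Figure D1:**
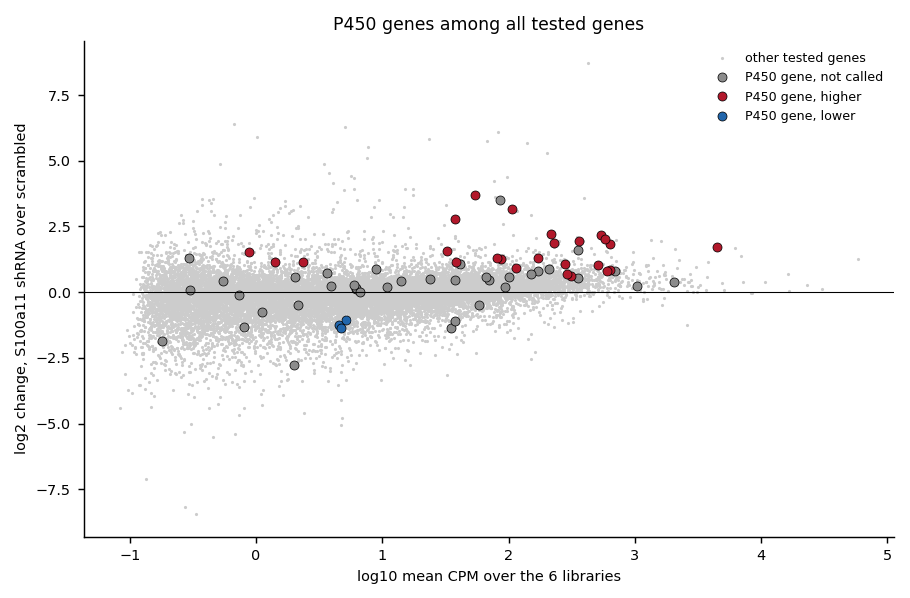
Log2 change (S100a11 shRNA over scrambled) against log10 mean CPM over the 6 libraries for all 19352 tested genes (small grey points) and the 66 tested P450 genes (large points, red higher, blue lower, dark grey not called). The P450 genes called higher lie mostly at the abundant end, and their median change over all 66 is 0.70.

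The count of calls leaned on single libraries. Without scrambled library 30, 8 P450 genes were higher (1.12% of all genes) and 0 lower (2.54%). Without scrambled library 31 the counts were 12 (2.10%) and 2 (3.47%), and without scrambled library 28 they were 20 (2.55%) and 3 (5.18%). Without library 3 they were 13 (2.16%) and 2 (2.96%), and without library 2600 they were 21 (4.07%) and 5 (6.29%). Without the library labelled S100a11 shRNA 2 they were 30 (9.13%) and 4 (12.0%), and all 28 called members kept their calls and directions. Other tests on all 6 libraries gave 33 (8.38%) and 4 (2132 of 19346 genes with an adjusted p) with DESeq2, 23 (5.47%) and 5 (8.35%) with limma voom, and 21 (4.22%) and 4 (10.2%) with upper-quartile factors. With scaling by library totals alone, which moved the median of all genes to -0.32, 17 were higher (2.05% of all genes) and 7 lower (20.5%). The median of the P450 genes was then 0.34, so it lay 0.66 above that of all genes with either scaling. Of the 28 called members, 7 (Cyp2c29, Cyp2c37, Cyp2c50, Cyp2c54, Cyp2d9, Cyp2d40 and Cyp2e1) kept their call in all 15 alternatives, and 0 reversed direction.

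**Figure D2:**
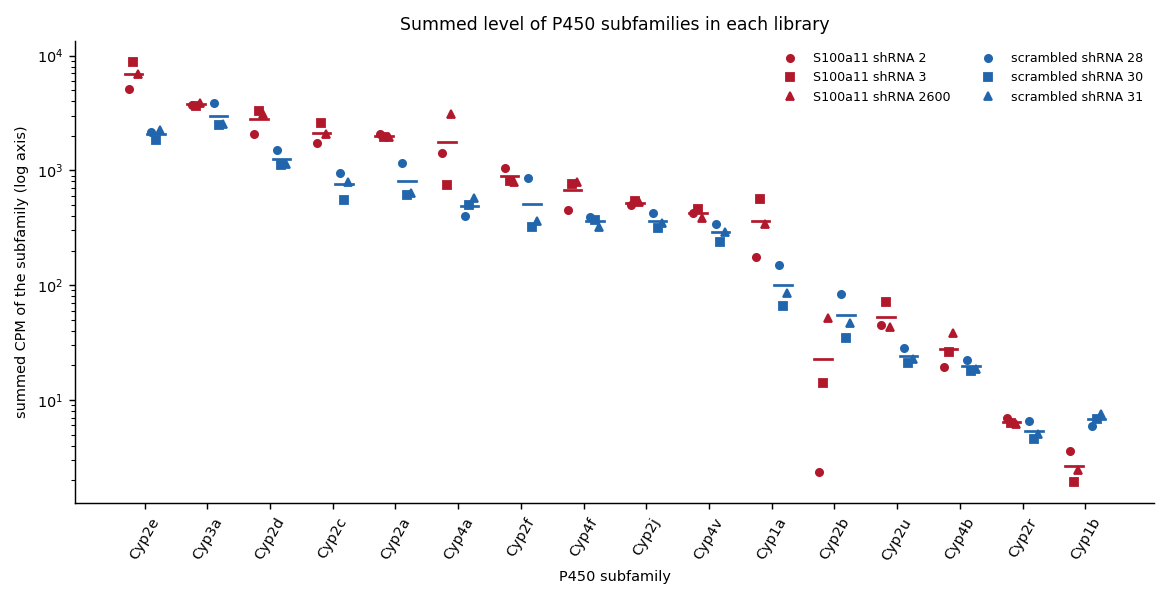
Summed CPM (log axis) of 16 P450 subfamilies in each library, with red symbols for the libraries labelled S100a11 shRNA on the left of each pair, blue symbols for the scrambled libraries on the right and bars for group means. Cyp2e, Cyp2d, Cyp2c, Cyp2a and Cyp4a do not overlap between the groups, Cyp3a overlaps, and Cyp2b spans 2.35 to 51.5 CPM within the libraries labelled S100a11 shRNA.

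Cyp2e1, which oxidises ethanol and paracetamol, was the most abundant member per length in both groups. It lies on chromosome 7 from 140763739 to 140774975 (mm10), and only 3.87% of its exon words occur in another gene. Its level was 5103, 8830 and 6925 CPM in the libraries labelled S100a11 shRNA, against 2165, 1852 and 2250 CPM in the scrambled libraries. Every library of the first set stood above every scrambled one, with a 3.33-fold difference (log2 change 1.74 ± 0.30, SE, adjusted p = 0.0090). Per kilobase of exon its mean level was 3805 against 1143 CPM, ahead of Cyp3a11 at 990.0 against 754.8 CPM. Cyp2e1 made up 27.1%, 36.4% and 28.8% of all P450 counts in the libraries labelled S100a11 shRNA, against 17.6%, 21.8% and 23.9% in the scrambled libraries, while Cyp3a11 made up 13.8%, 8.64% and 9.44%, against 17.9%, 16.3% and 18.2%.

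Family 1, the aryl hydrocarbon-induced P450s, split in direction. Cyp1a2, the hepatocyte enzyme that metabolises caffeine, stood at 175.8, 560.9 and 339.5 CPM in the libraries labelled S100a11 shRNA, against 147.5, 65.1 and 84.5 CPM in the scrambled libraries (3.62-fold higher, adjusted p = 0.024). Its call ended without library 3 (log2 change 1.37, adjusted p = 0.079), scrambled library 30 (1.63, 0.095) or scrambled library 31 (1.76, 0.078). Cyp1b1, which acts on oestrogens and is expressed in mesenchymal cells, was lower at 3.56, 1.93 and 2.48 CPM, against 5.96, 6.82 and 7.53 CPM (log2 change -1.35 ± 0.25, adjusted p = 0.011, or 0.051 without scrambled library 30). Cyp1b1 moved with the stellate cell markers, whose summed levels are given above, and their part in this difference was not tested. Cyp1a1, the classic Ahr target, was near the floor at 0.25 to 1.02 CPM against 0.38 to 0.98 CPM and was not called (adjusted p = 0.90). Outside the P450s, 1 of 4 tested Ahr target genes was higher (Ugt1a6a, log2 change 0.75, adjusted p = 0.036), against 5.82% of all genes. With library totals alone 0 were higher and 1 lower (2.05% and 20.5% of all genes).

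The Cyp2c genes, most of them in an array on chromosome 19 from 39007019 to 40187333, held the largest called changes among the P450 genes. The array makes epoxides from arachidonic acid and metabolises drugs. Of 13 tested members 6 were higher and the other 7 were not called. Cyp2c54 stood at 25.5, 139.1 and 136.1 CPM in the libraries labelled S100a11 shRNA, against 12.4, 3.92 and 6.61 CPM in the scrambled libraries. Cyp2c37 stood at 133.6, 232.3 and 203.4 CPM, against 35.2, 10.4 and 18.6 CPM. Cyp2c50 stood at 252.8, 461.9 and 349.9 CPM, against 116.6, 45.1 and 65.7 CPM. In all 3 genes the groups did not overlap, library 2 was the lowest of its group, and scrambled library 28 was the highest of its group. The differences were 13.1-fold for Cyp2c54 (log2 change 3.71 ± 0.65, adjusted p = 0.0094), 8.87-fold for Cyp2c37 (3.15 ± 0.42, adjusted p = 0.0046) and 4.68-fold for Cyp2c50 (2.23 ± 0.35, adjusted p = 0.0071). Of the exon words of Cyp2c54, 25.7% occur in other genes, with 17.5% in Cyp2c50 and 16.0% in Cyp2c37. Both shares lay under the 20% cut, so Cyp2c54 was not summed with them, and reads of the 3 genes may be mixed. Cyp2c29, an abundant epoxygenase, averaged 573.2 ± 180.9 CPM in the libraries labelled S100a11 shRNA and 149.1 ± 67.6 CPM in the scrambled libraries (SD over 3 libraries), 3.85-fold higher (adjusted p = 0.011). It shares exon bases with the pseudogene Cyp2c53-ps on the same strand.

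Other Cyp2c members changed less or lay near the threshold. Cyp2c44, an epoxygenase apart from the array at 44005022 to 44029247, was 2.44-fold higher (adjusted p = 0.012, or 0.051 without library 3). Cyp2c70, which makes the muricholic acids of mouse bile, was at 327.6, 332.1 and 159.6 CPM, against 155.7, 120.8 and 164.5 CPM, and the overlap came from library 2600 (log2 change 0.89, adjusted p = 0.059). It was called higher without that library (1.15, adjusted p = 0.011), by DESeq2 (0.012) and with no filter (0.047). Cyp2c69, a low female-biased copy at 0.93, 1.90 and 1.02 CPM against 0.42, 0.65 and 0.30 CPM, was called (adjusted p = 0.039), but its call ended without any one library except library 2 (adjusted p of 0.054 to 0.14). Summed with Cyp2c40, Cyp2c67 and Cyp2c68, with which it shares exon sequence, it gave no call (log2 change 0.57 ± 0.22, adjusted p = 0.12). Cyp2c55, which CAR and PXR induce, was not called at 0.98 to 2.96 CPM against 1.95 to 2.88 CPM (adjusted p = 0.44).

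All 8 Cyp2d genes chosen by the rule were higher by sign and none overlapped between the groups, where 34.7% of all tested genes showed no overlap. These 8 genes lie on chromosome 15 from 82370528 to 82794245, are counterparts of the human drug-metabolising CYP2D6, and 7 of the 8 were called higher. Cyp2d37-ps, labelled protein-coding but outside the rule by its symbol, held 9599, 21290 and 9987 raw counts, against 10058, 8812 and 10761. These counts are not scaled for depth or TMM factor, so they cannot be set beside the CPM of the other genes. Library 2600 had the smallest depth (53517387 counts) and TMM factor (0.82). Cyp2d9, a male-biased steroid hydroxylase, stood at 500.0, 1120 and 1187 CPM in the libraries labelled S100a11 shRNA, against 297.6, 209.5 and 176.8 CPM in the scrambled libraries. Library 2 was again the lowest of its group, and the difference was 4.11-fold (log2 change 2.04 ± 0.34, adjusted p = 0.0083). Cyp2d40 had the smallest adjusted p of all P450 members, with 45.5, 56.2 and 44.5 CPM against 19.7, 12.7 and 17.2 CPM (2.95-fold, adjusted p = 0.0035). Cyp2d26, the most abundant of the subfamily per length after Cyp2d9 in the first group, was 1.74-fold higher at 764.9 ± 78.9 against 440.3 ± 90.1 CPM (adjusted p = 0.028). The smaller differences of Cyp2d10, Cyp2d26 and Cyp2d34 (1.74-fold to 2.25-fold) lost their calls without library 3, scrambled library 30 or scrambled library 31 in turn (adjusted p of 0.060 to 0.12), and those of Cyp2d12 and Cyp2d22 without any one library except library 2 (adjusted p of 0.059 to 0.15). With library totals alone Cyp2d12, Cyp2d22, Cyp2d26 and Cyp2d34 were not called (log2 changes 0.34 to 0.81).

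Among the Cyp2a and Cyp2b genes on chromosome 7, the abundant Cyp2a5 and Cyp2a12 were higher, and Cyp2a4 and Cyp2b9 varied widely within the libraries labelled S100a11 shRNA. Cyp2a5, the pericentral coumarin hydroxylase, was steady in that group at 976.0, 975.4 and 1025 CPM, against 540.1, 121.4 and 179.3 CPM in the scrambled libraries (3.54-fold, adjusted p = 0.037). Its call ended without library 3, library 2600, scrambled library 30 or scrambled library 31 in turn (adjusted p of 0.079 to 0.11), and without scrambled library 28 its log2 change was 2.73 in place of 1.82. Its close copy Cyp2a4, a female-biased steroid hydroxylase, ran differently: 386.4, 79.1 and 4.18 CPM, against 16.5, 11.8 and 12.6 CPM. Library 2 was the highest of all 6, library 2600 lay below every scrambled library, and Cyp2a4 was not called (log2 change 3.52 ± 1.14, adjusted p = 0.073). It was called with no filter (0.044), by DESeq2 (0.050 after rounding) and without library 2600 (log2 change 4.10, adjusted p = 0.011). Summed, the pair gave 1362, 1055 and 1030 CPM, against 556.5, 133.2 and 191.8 CPM (log2 change 1.97 ± 0.47, adjusted p = 0.028). Cyp2a12, an abundant steroid hydroxylase, was 1.80-fold higher (adjusted p = 0.028). It was not called when library 3, 2600, 30 or 31 was left out (adjusted p of 0.068 to 0.11), nor with library totals alone (0.083). Cyp2a22, its close copy, did not overlap and was lower by sign at 41.2, 26.9 and 3.41 CPM, against 44.0, 55.5 and 54.7 CPM (adjusted p = 0.28).

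Cyp2b9, another female-biased gene, had the reverse order of Cyp2a4 within the libraries labelled S100a11 shRNA. It stood at 0.077, 13.1 and 45.8 CPM, against 75.3, 31.9 and 43.0 CPM in the scrambled libraries, and was not called (log2 change -1.36 ± 1.13, adjusted p = 0.47). Cyp2b13, its female-biased neighbour, ran the same way at 0.062, 0.18 and 1.43 CPM, against 6.02, 1.58 and 2.76 CPM. Its groups did not overlap, and its adjusted p was 0.059, with a log2 change of -2.79 ± 0.84. With library totals alone that adjusted p was 0.021, and with limma voom 0.036. Cyp2b10, the classic CAR target, was not called at 2.21, 0.77 and 4.30 CPM, against 2.57, 1.34 and 0.95 CPM (adjusted p = 0.55, and of the opposite sign without library 2600).

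**Figure D3:**
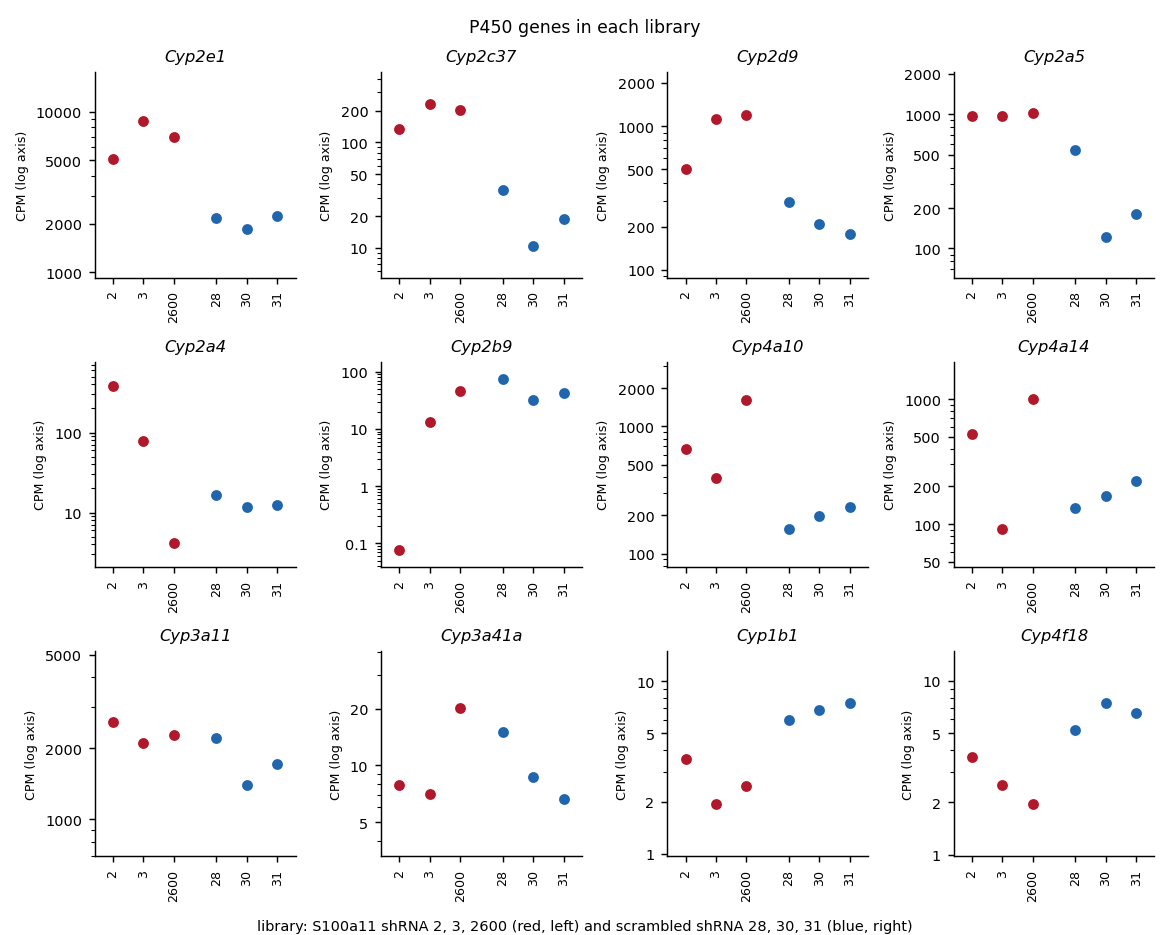
CPM (log axes, which differ between panels) of 12 P450 genes in each library, with the libraries labelled S100a11 shRNA in red on the left and the scrambled libraries in blue on the right. Cyp2e1, Cyp2c37, Cyp2d9, Cyp2a5 and Cyp4a10 separate the groups, Cyp2a4 and Cyp2b9 range over 386.4 to 4.18 and 0.077 to 45.8 CPM within the libraries labelled S100a11 shRNA, and Cyp1b1 and Cyp4f18 lie below every scrambled library.

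The Cyp3a genes on chromosome 5, the main drug-oxidising subfamily, were not called: 0 of 9 passed the threshold in either direction by edgeR, with 1 higher and 1 lower at an unadjusted p under 0.05 and by DESeq2. The summed level of the subfamily, second to Cyp2e in the libraries labelled S100a11 shRNA and the largest in the scrambled libraries, was 3739, 3660 and 3861 CPM in the libraries labelled S100a11 shRNA, against 3825, 2506 and 2532 CPM in the scrambled libraries. The ratio of the means was 1.27, or 0.99 with library totals alone. Cyp3a11, its most abundant member and a PXR target, stood at 2595, 2099 and 2267 CPM, against 2203, 1391 and 1714 CPM, and scrambled library 28 overlapped the other group (log2 change 0.39 ± 0.24, adjusted p = 0.31). Cyp3a25 stood at 924.1, 1295 and 1186 CPM, against 1348, 911.6 and 631.6 CPM (adjusted p = 0.62). The female-biased members Cyp3a16, Cyp3a41a, Cyp3a41b and Cyp3a44 lay at 3.15 to 20.2 CPM against 4.40 to 15.1 CPM, with log2 changes of 0.00 to 0.21, and all 4 changed sign with library totals alone. Cyp3a57, at 0.36, 0.26 and 0.80 CPM against 1.17, 1.25 and 0.98 CPM, had an adjusted p of 0.054 and passed as lower with upper-quartile factors (0.045), library totals alone (0.014), DESeq2 (0.026) and limma voom (0.041). DESeq2 called Cyp3a13 higher (0.018, against 0.062 by edgeR).

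Cyp4a genes on chromosome 4, the PPARA-regulated hydroxylases of fatty acids, rose in 4 of 6 tested members. Cyp4a10 stood at 669.5, 394.2 and 1619 CPM in the libraries labelled S100a11 shRNA, against 157.4, 196.7 and 232.3 CPM in the scrambled libraries (4.58-fold, log2 change 2.19, adjusted p = 0.017). Leaving out library 2600 gave a log2 change of 1.44 (adjusted p = 0.019), and its call ended without scrambled library 28 (0.060) or 30 (0.071). Cyp4a14, which is also female-biased, stood at 521.8, 90.9 and 998.3 CPM, against 133.8, 167.3 and 223.1 CPM. Library 3 lay below every scrambled library and the gene was not called (log2 change 1.62 ± 0.65, adjusted p = 0.13), whereas without library 3 it was (2.12, adjusted p = 0.020). Cyp4a32 was 2.47-fold higher (adjusted p = 0.026) but was not called when a scrambled library was left out (adjusted p of 0.056 to 0.082). Cyp4a10 and Cyp4a14 were highest in library 2600 and lowest in library 3 among the libraries labelled S100a11 shRNA. Cyp4a31, at 15.6, 6.30 and 26.3 CPM against 7.06, 13.9 and 15.0 CPM, followed that order too and was not called (adjusted p = 0.59). The male-biased pair Cyp4a12a and Cyp4a12b, arachidonic acid hydroxylases with 98.6% identical coding sequence, stood at 90.0, 113.8 and 167.5 CPM and at 18.7, 67.1 and 110.2 CPM, against 59.2, 57.2 and 37.3 CPM and 7.22, 9.66 and 11.3 CPM. Cyp4a12a was 2.42-fold (adjusted p = 0.015) and Cyp4a12b 6.94-fold higher (adjusted p = 0.012), calls that ended without scrambled library 30 (0.053 and 0.057). Without library 2600 the log2 change of Cyp4a12b was 2.16 in place of 2.80. Summed, the pair was 3.12-fold higher (adjusted p = 0.012).

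The Cyp4f genes on chromosomes 8 and 17, which inactivate leukotrienes and other eicosanoids, moved in both directions: of 7 tested members 2 were higher and 2 lower. Cyp4f15 was higher at 250.4, 414.2 and 464.3 CPM, against 206.1, 185.1 and 150.8 CPM (2.08-fold, adjusted p = 0.022), and Cyp4f14 at 92.6, 201.1 and 161.1 CPM, against 80.1, 77.3 and 80.7 CPM (1.91-fold, adjusted p = 0.038). The call of Cyp4f15 ended without library 3, 2600, 30 or 31 (adjusted p of 0.057 to 0.083) and that of Cyp4f14 without any one library except library 2 (0.083 to 0.13). Cyp4f18, the leukocyte form in mouse, was lower at 3.62, 2.52 and 1.96 CPM, against 5.23, 7.46 and 6.51 CPM (log2 change -1.23 ± 0.26, adjusted p = 0.017). Cyp4f16 was lower at 3.53, 2.97 and 3.46 CPM, against 6.29, 7.40 and 7.07 CPM (-1.06 ± 0.18, adjusted p = 0.0084). Without scrambled library 30 neither of the lower genes was called (log2 changes -1.11 and -1.01), and Cyp4f18 was not called without library 3 (0.073) or scrambled library 31 (0.057). Some neutrophil and macrophage markers were lower too. Within the libraries labelled S100a11 shRNA, Cyp4f18 was lowest in library 2600, where the summed neutrophil and macrophage markers were highest (21.3 and 310.6 CPM). Those sums came mostly from markers that were not called, Csf3r (19.6 CPM), Clec4f (130.3 CPM) and Csf1r (109.4 CPM). The macrophage markers called lower, Cd68, Trem2 and Gpnmb, were highest in library 2 (18.4, 7.84 and 33.6 CPM), as was Cyp4f18. The part of these cells was not tested, and 9.76% of the exon bases of Cyp4f18 overlap Zfp961 on the other strand. The sources used here do not give the strand setting of the counting, so reads of the 2 genes may be mixed.

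Of the remaining subfamilies, Cyp2u and Cyp2j each had 1 member called higher. Cyp2u1, a fatty acid hydroxylase, was 2.21-fold higher at 45.3, 70.8 and 43.1 CPM, against 28.2, 20.9 and 22.8 CPM (adjusted p = 0.012, or 0.061 without scrambled library 30), and 10.5% of its exon bases overlap 4930534D22Rik on the other strand. Cyp2j5, an epoxygenase of liver and kidney, was 1.54-fold higher at 371.0, 382.5 and 382.3 CPM, against 289.4, 199.5 and 250.6 CPM (adjusted p = 0.040). Its call ended without library 3, 2600, 30 or 31 (adjusted p of 0.077 to 0.16), and with library totals alone (log2 change 0.26, adjusted p = 0.24). The other 4 tested Cyp2j genes were not called. Cyp2f2, the periportal enzyme that activates naphthalene, stood at 1050, 811.3 and 796.6 CPM, against 849.7, 322.1 and 361.1 CPM, and scrambled library 28 overlapped the other group (log2 change 0.79, adjusted p = 0.17). Without that library Cyp2f2 was called higher (1.38, adjusted p = 0.015). Cyp4v3, a fatty acid hydroxylase, did not overlap at 425.3, 461.6 and 385.0 CPM, against 337.9, 235.7 and 292.2 CPM, but was not called (adjusted p = 0.065, or 0.018 by DESeq2), and it shares exon bases with Klkb1 on the same strand. Cyp2r1, which hydroxylates vitamin D, Cyp4b1, Cyp2s1 and Cyp2g1 were not called (adjusted p = 0.38, 0.18, 0.15 and 0.24).

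**Figure D4:**
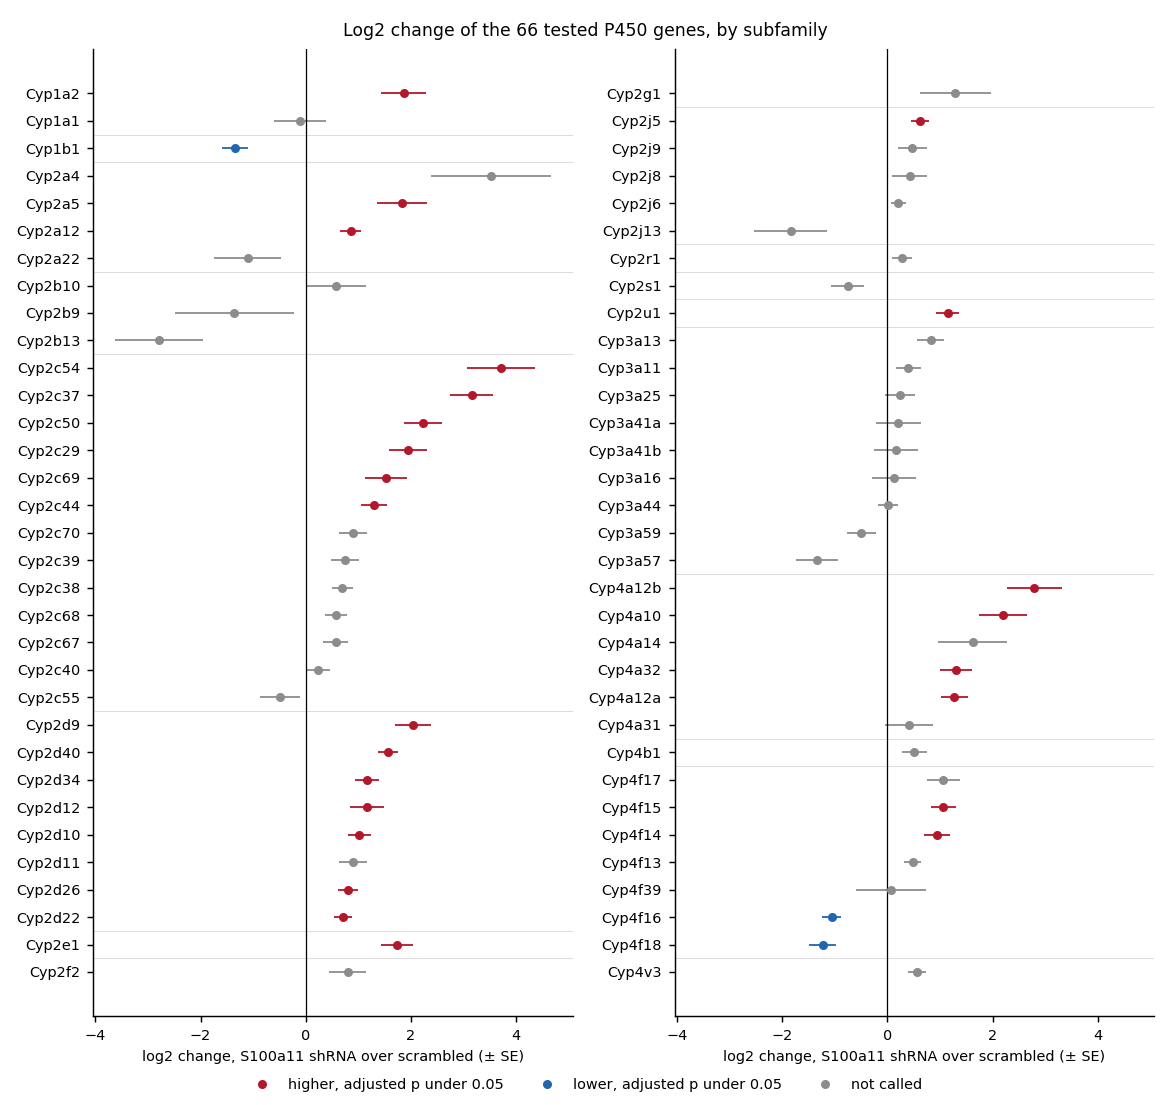
Log2 change with its standard error (S100a11 shRNA over scrambled, edgeR) for the 66 tested P450 genes, ordered by subfamily, with genes higher in red, lower in blue and not called in grey. The 8 Cyp2d genes lie to the right of 0, no Cyp3a gene is called, and Cyp2a4 and Cyp2b9 have standard errors of 1.14 and 1.13.

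Close copies were also summed before the fit. This gave 67 features in place of 80 genes, some with too few counts to be tested. Of these, 21 were higher and 3 lower, against 5.83% and 8.29% of all tested features. The pair Cyp2c37 and Cyp2c50 averaged 544.7 ± 154.1 CPM in the libraries labelled S100a11 shRNA and 97.2 ± 49.4 CPM in the scrambled libraries (SD over 3 libraries), 5.61-fold higher (adjusted p = 0.0059). The set of Cyp4a10, Cyp4a31 and Cyp4a32 was 4.04-fold higher (adjusted p = 0.020), Cyp2d10 with Cyp2d11 2.02-fold (adjusted p = 0.021) and Cyp2a12 with Cyp2a22 1.67-fold (adjusted p = 0.034). Cyp3a25 with Cyp3a59 and Cyp3a41a with Cyp3a41b were not called (adjusted p = 0.69 and 0.80). Without scrambled library 30, 8 features were higher, without scrambled library 31, 9, and without library 3, 10. In the same fits without summing, 1.12%, 2.10% and 2.16% of all genes were higher.

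Sorted by known pattern of expression, the members divided unevenly. Over all tested genes 5.82% were higher and 8.28% lower, or 16.4% and 2.32% in the most abundant sixth. All 3 male-biased genes (Cyp2d9, Cyp4a12a and Cyp4a12b) were higher, with a median log2 change of 2.04, but Cyp4a12a and Cyp4a12b are close copies. Of 10 female-biased genes 1 was higher (Cyp2c69) and the others were not called, with a median of 0.18. With library totals alone 2.05% of all genes were higher and 20.5% lower. With that scaling 0 of the 10 were higher and 1 was lower (Cyp2b13), with a median of -0.20, and all 3 male-biased genes stayed higher, with a median of 1.66. The difference between these lists was not tested, and single female-biased genes spanned the widest ranges within the libraries labelled S100a11 shRNA. Of 8 pericentral genes 7 were higher, all but Cyp3a11, with a median log2 change of 1.90. Among them Cyp2c37, Cyp2c50 and Cyp2c54 share exon sequence. The 1 periportal gene, Cyp2f2, was not called on all 6 libraries (log2 change 0.79). Without scrambled library 28 it was called higher (1.38, edgeR adjusted p = 0.015). Of the CAR and PXR induced genes 0 of 3 were called by edgeR (0 at an unadjusted p under 0.05 and 0 by DESeq2), and of the PPARA-induced genes 1 of 3. Some of these genes stand in more than 1 list.

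Among the regulators of these genes, 4 of 14 were higher and the others were not called. Over all tested genes 5.82% were higher and 8.28% lower, or 16.4% and 2.32% in the most abundant sixth. Nr1i3, encoding CAR, stood at 566.6, 1213 and 1145 CPM in the libraries labelled S100a11 shRNA, against 325.6, 191.0 and 273.1 CPM in the scrambled libraries (log2 change 1.89 ± 0.32, adjusted p = 0.0083). Nr1i2, encoding PXR, was higher by 0.96 on the log2 scale (adjusted p = 0.0084) and Ppara by 0.77 (adjusted p = 0.012). The fourth, Nr1h4, encodes the bile acid receptor FXR. Ahr was level at 58.3 to 70.5 CPM against 58.2 to 78.0 CPM (adjusted p = 0.94), and Hnf4a was not called (log2 change 0.45, adjusted p = 0.12). With library totals alone 2 of the 14 were higher (2.05% of all genes). Of 5 CAR and PXR targets outside the P450s 2 were higher (Aldh1a1 and Ces2a) and 2 lower (Gadd45b and Akr1b7), and of 10 PPARA targets 4 were higher, with the smallest p-values for the thioesterase Acot1 (log2 change 2.54 ± 0.27, adjusted p = 0.0030) and the peroxisome gene Pex11a (1.16 ± 0.17, adjusted p = 0.0060). Among growth hormone and sex pattern regulators, Ghr and Esr1 were higher (adjusted p = 0.018 and 0.026), and neither kept its call with library totals alone.

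The genes that supply P450 enzymes with electrons and haem were also higher in part, where 5.82% of all tested genes were higher and 8.28% lower. Por, the reductase that serves all microsomal P450s, stood at 1063, 1110 and 1225 CPM in the libraries labelled S100a11 shRNA, against 216.7, 269.2 and 365.1 CPM in the scrambled libraries. The groups lay far apart and the log2 change was 2.00 ± 0.22 (adjusted p = 0.0032). The other 5 partner genes, among them cytochrome b5 (Cyb5a), were not called. Of 8 haem synthesis genes 4 were higher. Alas1, the rate-limiting first step, stood at 1589, 1671 and 1093 CPM, against 262.1, 567.2 and 671.5 CPM (log2 change 1.54 ± 0.34, adjusted p = 0.021). Cpox stood at 195.0, 179.1 and 178.3 CPM, against 74.3, 89.7 and 104.3 CPM (log2 change 1.04 ± 0.15, adjusted p = 0.0060), and Alad and Urod were also higher (adjusted p = 0.038 and 0.047). With library totals alone 2 of the 8 were higher (2.05% of all genes). Of 4 haem breakdown genes 0 were called by edgeR (0 at an unadjusted p under 0.05 and 0 by DESeq2). Of the P450 genes of other families, which make bile acids, steroids and retinoid metabolites, 7 of 13 tested were higher and 1 lower. With library totals alone 5 were higher and 3 lower (2.05% and 20.5% of all genes). The smallest p-values among those higher were those of the retinoic acid hydroxylase Cyp26b1, the bile acid enzyme Cyp8b1 and the oxysterol hydroxylase Cyp7b1 (log2 changes 2.43, 1.41 and 2.60).

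**Figure D5:**
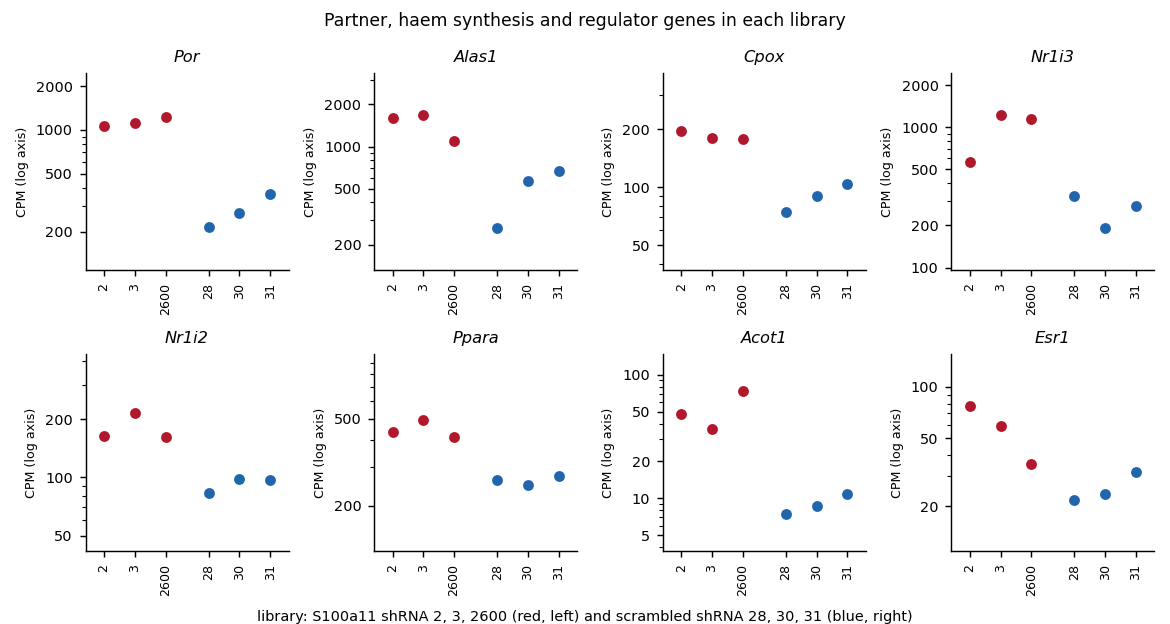
CPM (log axes, which differ between panels) of the reductase Por, the haem synthesis genes Alas1 and Cpox, the receptors Nr1i3, Nr1i2, Ppara and Esr1 and the PPARA target Acot1, with the libraries labelled S100a11 shRNA in red on the left and the scrambled libraries in blue on the right. In all 8 panels the groups do not overlap, and Por lies at 1063 to 1225 CPM against 216.7 to 365.1 CPM.

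Promoters were read from RefSeq (GRCm38.p6) for 65 of the 80 members, and 250 bases before the start were searched on both strands for 8 motifs. The letters CAAAGTCCA, a core bound by HNF4A, occurred in 10 of 65 members (15.4%) and in 0.374% of 27025 promoters. They occurred in 6 Cyp2c genes (Cyp2c40, Cyp2c65, Cyp2c67, Cyp2c68, Cyp2c69 and Cyp2c70) and 4 Cyp3a genes (Cyp3a11, Cyp3a16, Cyp3a41a and Cyp3a41b). Among the pairs of these genes that were compared, promoters were 48.2% (Cyp2c40 and Cyp2c67) to 99.6% (Cyp3a41a and Cyp3a41b) identical. Of the 16 members called higher that had a promoter, 1 held CAAAGTCCA. ATCAAT, a core bound by ONECUT factors, occurred in 12 members (18.5%) against 6.93% of promoters, and TATAAA in 26 (40.0%) against 12.9%. AGGTCA, the nuclear receptor motif that also makes up the direct repeats DR1 and DR4, occurred in 15 (23.1%, against 13.9%), the STAT5 site TTCNNNGAA in 4 (6.15%, against 7.05%) and the Ahr core GCGTG in 11 (16.9%, against 28.3%). The exact DR1 repeat of PPAR and HNF4A and the exact DR4 repeat of CAR and PXR occurred in 0 members (0.0407% and 0.0111% of promoters). Of the 16 members called higher, 5 held ATCAAT, 11 TATAAA, 2 AGGTCA and 0 the STAT5 site or the Ahr core. A match is a run of letters, not a shown binding site. The last 150 bases before the start follow for 2 genes called higher and 2 that were not, with CAAAGTCCA, ATCAAT and its reverse complement ATTGAT in capitals. These genes do not stand for the rest. Cyp2c69 (called higher) held both motifs, as did Cyp2c67, Cyp2c68, Cyp3a16, Cyp3a41a and Cyp3a41b (not called). The 2 matches in Cyp2c37 overlap.
Cyp2c37, chr19:39992274-39992423, plus strand: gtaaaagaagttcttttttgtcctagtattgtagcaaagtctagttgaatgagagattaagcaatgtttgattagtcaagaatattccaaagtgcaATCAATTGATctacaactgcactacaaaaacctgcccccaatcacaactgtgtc
Cyp2c50, chr19:40089529-40089678, plus strand: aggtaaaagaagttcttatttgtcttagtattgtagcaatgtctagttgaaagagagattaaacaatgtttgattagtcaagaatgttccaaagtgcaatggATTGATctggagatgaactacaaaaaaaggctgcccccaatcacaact
Cyp2c70, chr19:40187287-40187436, minus strand: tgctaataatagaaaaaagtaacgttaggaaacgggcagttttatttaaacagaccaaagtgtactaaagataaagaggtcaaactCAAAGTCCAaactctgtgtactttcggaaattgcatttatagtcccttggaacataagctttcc
Cyp3a11, chr5:145879855-145880004, minus strand: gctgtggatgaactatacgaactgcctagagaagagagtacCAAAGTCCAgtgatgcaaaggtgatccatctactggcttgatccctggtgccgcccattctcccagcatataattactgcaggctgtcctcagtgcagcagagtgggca

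The promoters of Cyp2a4 and Cyp2b9, female-biased genes with wide ranges, are nearly the same as those of Cyp2a5 and Cyp2b13 on the same chromosome. Cyp2b13 is female-biased too. Those of Cyp2a4 and Cyp2a5 were 97.6% identical over the 250 bases and those of Cyp2b9 and Cyp2b13 99.2%. The last 150 bases are given with capitals at positions that differ within a pair or stand opposite a gap.
Cyp2a4, chr7:26307042-26307191, plus strand: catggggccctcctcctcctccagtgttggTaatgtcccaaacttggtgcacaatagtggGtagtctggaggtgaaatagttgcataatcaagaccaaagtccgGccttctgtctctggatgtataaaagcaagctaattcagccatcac
Cyp2a5, chr7:26835189-26835338, plus strand: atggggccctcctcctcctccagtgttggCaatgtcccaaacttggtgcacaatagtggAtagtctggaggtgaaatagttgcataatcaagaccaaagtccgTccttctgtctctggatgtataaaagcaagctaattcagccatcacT
Cyp2b9, chr7:26173259-26173408, plus strand: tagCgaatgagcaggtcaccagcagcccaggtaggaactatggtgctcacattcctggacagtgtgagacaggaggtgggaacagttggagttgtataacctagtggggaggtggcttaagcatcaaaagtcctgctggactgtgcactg
Cyp2b13, chr7:26061345-26061494, plus strand: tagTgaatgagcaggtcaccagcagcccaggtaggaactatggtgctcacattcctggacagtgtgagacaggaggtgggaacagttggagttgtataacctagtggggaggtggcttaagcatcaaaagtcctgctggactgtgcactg
In the libraries labelled S100a11 shRNA, Cyp2a5 stayed within 975.4 to 1025 CPM while Cyp2a4 ranged from 4.18 to 386.4 CPM. Cyp2b9 (0.077, 13.1 and 45.8 CPM) and Cyp2b13 (0.062, 0.18 and 1.43 CPM) both rose in the order 2, 3 and 2600. How reads shared by Cyp2a4 and Cyp2a5 were counted is not known, and the part of the promoters was not tested.

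The remaining 14 members had too few counts to be tested: Cyp2b19, Cyp2b23, Cyp2c65, Cyp2c66, Cyp2j7, Cyp2j11, Cyp2j12, Cyp2t4, Cyp2w1, Cyp4a29, Cyp4a30b, Cyp4f37, Cyp4f40 and Cyp4x1. Cyp2b23 held 0 counts in all 6 libraries. Cyp4a30b held 1, 3 and 11 counts in the libraries labelled S100a11 shRNA and 0 in each scrambled library, too few for a comparison.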

How the data were processed

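The authors deposited a table of whole-number counts, 1 row per Ensembl gene, from total RNA prepared with a stranded, ribosome-depleting Illumina kit, per the labels' protocols. The submitters' processing notes name the build mm10. Aligner, counter, strand setting and the treatment of reads with several matches were not given in the sources used here. In the same table the deposited gene Length column (other unit, in bases) was used for levels per kilobase.

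Groups came from the labels, 3 libraries each, with 53517387 to 78091845 counts. Counts were tested in R 4.3.3 with edgeR 4.0.16: TMM factors, filterByExpr (minimum count 10, minimum total 15), quasi-likelihood F tests over 19352 genes, Benjamini-Hochberg adjustment over all of them with calls at 0.05. Biological variation between libraries (common BCV) was 0.223. SE is the log2 change divided by the square root of F. CPM come from TMM-scaled totals. DESeq2 1.42.0, limma 3.58.1 voom, other scalings and filters, and leaving out each library were alternatives. The legacy quasi-likelihood fit was chosen after seeing the data. The procedure was tested on simulated data.

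Close copies were joined at 20% of shared 50-base words of GENCODE M21 transcripts. Tables were made in python 3.11.15 (pandas 2.3.3, numpy 2.4.6), sequences were compared with biopython 1.88 and figures drawn with matplotlib 3.10.9.

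The members and gene lists were chosen with earlier results of these data known, so a list's direction is no independent evidence. Named genes were the most abundant member of each subfamily, up to 3 called members of it by p, the members of the P450 lists, and up to 3 called members of each other list. Other genes named, such as Cyp2a22, Cyp2c44, Cyp2c70, Cyp2d10, Cyp2d12, Cyp2d22, Cyp3a25, Cyp3a57, Cyp4a32 and Cyp4f14, and the uncalled genes of other lists, were chosen after their values were seen. For the growth hormone and sex pattern regulators, part of the list is not reported here.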

Additional observations from a re-analysis of the deposited data

How the results depend on the processing

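No paired analysis was possible because the replicate numbers of the groups (2, 3 and 2600, and 28, 30 and 31) are not shared. The 25 P450 genes called higher (against 5.82% of all tested genes) became 8 to 30 when each library was left out (1.12% to 9.13%). They became 17 with library totals alone (2.05%), 21 with upper-quartile factors (4.22%), 33 with DESeq2 (8.38%) and 23 with limma voom (5.47%). The 3 called lower (8.28%) became 0 to 5 when each library was left out (2.54% to 12.0%). They became 7 with library totals alone (20.5%) and 5 with limma voom (8.35%). With no filter 31 were higher and 5 lower, and the share of all genes is not given for that fit. The lower calls gained with library totals alone were Cyp2b13, Cyp2s1, Cyp3a57 and Cyp3a59. Of groups of close copies, 21 were higher and 3 lower, against 5.83% and 8.29% of all tested features. The higher groups became 8 to 25 without each library and 8 when whole subfamilies were summed, which leaves fewer features. The lower groups became 1 to 5 without each library, 1 for whole subfamilies and 6 with library totals alone. Library totals alone also ended the higher calls of Cyp2a12 with Cyp2a22, Cyp2d12, Cyp2d22, Cyp2d26, Cyp2d34, Cyp2j5 and Cyp4f14 (edgeR adjusted p of 0.051 to 0.24). With that scaling and no summing, 2.05% of all genes were higher and 20.5% lower. Shares of all features are not given for the other summed fits. The cause of the other shifts was not tested. Of the 28 called members 20 kept their call in all 9 alternatives that used every library and 7 without each library in turn.

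Sign changes were seen for genes that were not called. With library totals alone the log2 changes of Cyp2c40, Cyp2r1, Cyp3a16, Cyp3a41a, Cyp3a41b and Cyp3a44 were -0.12, -0.081, -0.27, -0.18, -0.23 and -0.36. Those of Cyp3a16, Cyp3a41b and Cyp3a44 were -0.073, -0.020 and -0.020 with limma voom. Cyp3a44 lay at 0.00 and changed sign under most settings, with -0.0032 for RLE factors, -0.0030 for DESeq2, -0.017 for protein-coding genes only, -0.026 for at least 1 CPM in 3 libraries and -0.094 for upper-quartile factors. With each library left out in turn, the log2 change ran from -0.49 to 0.21 for Cyp1a1, -0.11 to 1.07 for Cyp2b10, -0.52 to 0.44 for Cyp3a16, -0.45 to 0.61 for Cyp3a41a, -0.49 to 0.48 for Cyp3a41b, -0.14 to 0.14 for Cyp3a44 and -0.13 to 0.80 for Cyp4a31. The 14 members under the count filter were not tested.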
